A study of Homo sapiens with 18 samples.

Results

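The BCL2 family decides whether a cell keeps its mitochondria intact or starts the intrinsic pathway of apoptosis. Anti-apoptotic members such as BCL2 hold the effectors BAX and BAK1 in check, BH3-only members such as BBC3 (PUMA) and PMAIP1 (NOXA) bind the anti-apoptotic members and release this hold, and the freed effectors permeabilize the outer mitochondrial membrane. Cisplatin, which crosslinks bases in DNA, is known to engage this pathway, and several of these genes are known targets of p53. The 10 genes described here were the rows of the RNA-seq count table named BCL2, BCL2L1, MCL1, BCL2L11, BBC3, PMAIP1, BIK, BMF, BAX and BAK1, out of 23622 genes in all.

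RNA was sequenced from A2780 cells, a cisplatin-sensitive human ovarian carcinoma line, and from A2780cis (Acis) cells, its cisplatin-resistant derivative, which was given cisplatin at intervals in culture to maintain resistance. Each line was harvested without treatment (control) or after 3 h in 200 µM cisplatin, with 3 libraries in each of the 4 groups. The 12 libraries held 4130644 to 5072216 counts. Each condition also had 1 list of ATAC-seq peaks, the stretches of chromatin open to a transposase, made by the authors from 3 control or 2 cisplatin replicates. Only 1 resistant line was studied, so differences tied to resistance cannot be told apart from other differences between the lines. Per the methods, cells for RNA were seeded as triplicate wells per condition, and no source used here says whether these were seeded on separate days, so p-values measure the spread between such wells. All 3 pairs of A2780 control libraries, and 1 pair in each other group, differed by less than the sampling noise of their counts. They were kept as separate libraries, and calls that changed when the closest pairs were merged are given with the gene. This merging left A2780 control as it was, as no pair of it stood out, and a second version, chosen after seeing the data, merged the closest pair in all 4 groups. Of 9 epithelial or ovarian carcinoma markers, 3 were in the table used here (EPCAM, KRT8 and KRT18), with 2 to 449 counts summed over the 3 libraries of a group. Of the mesenchymal genes, VIM, a filament gene, had 5459 to 6106 in the 4 groups, CDH2, N-cadherin, had 1923 in A2780 control and 189 in Acis control, and FN1, fibronectin, had 0 to 10. PTPRC, CD3E and PECAM1, which mark blood and endothelial cells, were not in the table used here, and COL1A1, a collagen gene, had 2580 counts in A2780 control and 45 in Acis control. Further markers of cells that a pure line should not hold were CD68, with 2 to 17 counts in the 4 groups, and DCN, with 10 to 142.

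Counts were normalized to the mean library size, and 15760 genes were tested with edgeR's quasi-likelihood test, with p-values adjusted by the Benjamini-Hochberg method over all of them. A gene was called at an adjusted p-value under 0.05, and the stricter call also asked for a log2 fold change of 1 or more in size. Of the 10 family genes, 9 were tested. BIK, a BH3-only gene (ENSG00000100290, chr22:43110750-43129712), did not pass the filter on low counts, with 0, 0 and 1 raw counts in A2780 control and 1 in each treated A2780 library. The untreated Acis libraries had 1, 3 and 3 and the treated ones 2 each. At these counts no change of BIK was detectable. BMF passed the filter only through its counts in A2780. Coordinates are those of GRCh38 in GENCODE 44. As these are bulk RNA data, fewer cells with a transcript and less of it per cell cannot be told apart.

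**Figure D1:**
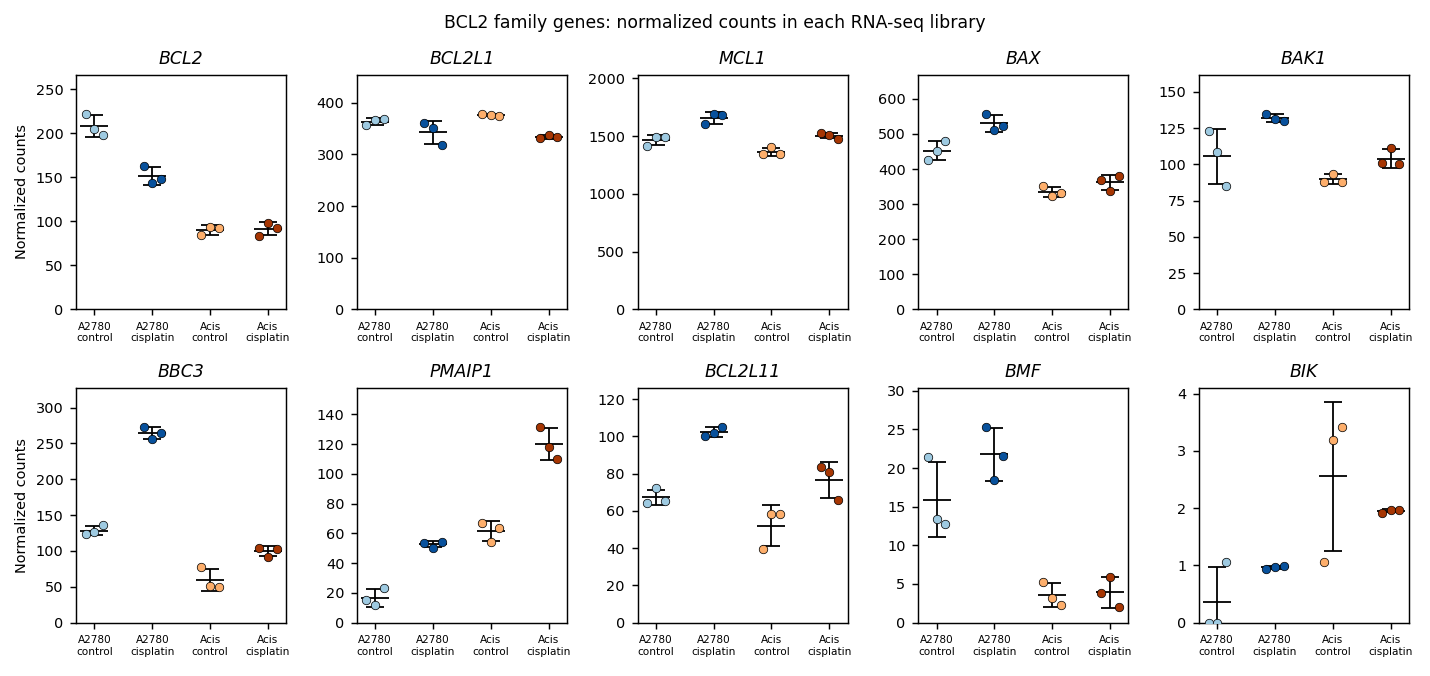
Normalized counts (y axis, linear from 0, with a separate scale for each gene) of the 10 BCL2 family genes in each RNA-seq library, by group (x axis). Points are libraries, and the bars are the mean and SD of 3 libraries. BBC3 lies between 257 and 273 in A2780 cisplatin and between 123 and 136 in A2780 control, while PMAIP1 is highest in Acis cisplatin, at 110 to 131, and lowest in A2780 control.

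After 3 h in cisplatin, the BH3-only genes PMAIP1, BBC3 and BCL2L11 rose in both lines, and the anti-apoptotic gene BCL2 fell in A2780. In A2780, 6 of the 9 tested family genes rose (PMAIP1, BBC3, BCL2L11, BAK1, BAX and MCL1), where 21.2% of all tested genes were called higher, and 1 fell (BCL2), where 28.2% were called lower. PMAIP1 and BBC3 also passed the stricter call, which 4.14% of all tested genes passed as higher. In Acis, 4 of the 9 rose (PMAIP1, BBC3, BCL2L11 and MCL1), against 9.35% of all tested genes, and BCL2L1 fell, against 12.4%. With libraries scaled by total counts, 33.6% of all tested genes were called higher and 19.4% lower in A2780, and 14.9% and 8.95% in Acis, while the family had 6 higher and 1 lower in A2780 and 4 higher and 0 lower in Acis. The stricter call, which 2.01% of all tested genes passed in Acis in either direction, was not reached there, as the largest change, that of PMAIP1, was 0.96. With DESeq2 in place of edgeR, 5 family genes rose and 1 fell in A2780, against 9.61% and 17.2% of all genes it tested. In Acis 2 rose and 0 fell with it, against 3.18% and 9.13%. The median log2 fold change of the 9 genes was 0.31 in A2780 and 0.14 in Acis, and that of all tested genes was -0.01 and 0.01.

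PMAIP1 encodes NOXA, a BH3-only protein that binds MCL1 and promotes its degradation (ENSG00000141682, chr18:59899996-59904305). Its normalized counts were 14.9, 11.5 and 23.5 in the A2780 control libraries and 53.5, 50.3 and 54.0 in A2780 cisplatin. They were 66.9, 54.3 and 63.8 in Acis control and 131, 118 and 110 in Acis cisplatin. Every untreated Acis library was above every treated A2780 library, if barely. The log2 fold change after cisplatin was 1.67 (SE 0.20, adjusted p = 1.08e-07) in A2780 and 0.96 (SE 0.12, adjusted p = 1.25e-06) in Acis, with no overlap between the groups in either line. The rise was smaller in Acis by 0.71 on the log2 scale, as the interaction of line and cisplatin was -0.71 (SE 0.25, adjusted p = 0.0426). This call was lost with DESeq2 (adjusted p = 0.133), without the filter on low counts (0.0604), with the closest replicates merged (0.0596, and 0.0789 when merged in all 4 groups) and in 8 of the 12 refits that each left out 1 library. Without A2780 control replicate 2, the library with the lowest count, the interaction was -0.51 with an adjusted p of 0.233.

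BBC3 encodes PUMA, a BH3-only protein that binds all anti-apoptotic members and is a well known target of p53 (ENSG00000105327, chr19:47220822-47232766). It had 123, 126 and 136 normalized counts in A2780 control and 273, 257 and 264 in A2780 cisplatin. It had 77.5, 51.1 and 49.0 in Acis control and 104, 91.6 and 103 in Acis cisplatin. Every Acis library, treated or not, was below every untreated A2780 library. The log2 fold change was 1.05 (SE 0.09, adjusted p = 9.75e-11) in A2780 and 0.74 (SE 0.13, adjusted p = 0.000158) in Acis. The effects in the lines differed by -0.31 (SE 0.16, adjusted p = 0.215), which did not pass the test, and the 95% interval of this difference ran from -0.63 to 0.02.

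BCL2L11 encodes BIM, a BH3-only protein that can also activate BAX and BAK1 directly (ENSG00000153094, chr2:111119378-111168444). Its normalized counts were 64.4, 72.1 and 65.1 in A2780 control and 100.3, 102 and 105 in A2780 cisplatin. They were 39.3, 58.6 and 58.1 in Acis control and 83.5, 80.7 and 65.8 in Acis cisplatin. The treated and untreated libraries did not overlap in either line. The log2 fold changes were close to each other, at 0.60 (SE 0.12, adjusted p = 0.00015) in A2780 and 0.56 (SE 0.14, adjusted p = 0.00435) in Acis. Their difference had a 95% interval of -0.41 to 0.33. The call in Acis was lost with DESeq2 (adjusted p = 0.0542) and without Acis control replicate 1, the lowest library, where the log2 fold change was 0.39 (adjusted p = 0.0842). A transcript on the opposite strand, MIR4435-2HG, overlaps BCL2L11, and the counting was strand-specific.

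These 3 genes rose together in both lines, and the 250 bases before their starts are shown because the shared rise makes their promoters of interest. The sequences are those of RefSeq on GRCh38.p14, at chr18:59899746-59899995 on the plus strand for PMAIP1, chr19:47232668-47232917 on the minus strand for BBC3 and chr2:111120664-111120913 on the plus strand for BCL2L11, whose RefSeq start lies 1536 bp downstream of the GENCODE start. Capitals mark matches on either strand to a GC box (GGGCGG), an AP-1 site (TGANTCA) or an E-box (CACGTG).
PMAIP1: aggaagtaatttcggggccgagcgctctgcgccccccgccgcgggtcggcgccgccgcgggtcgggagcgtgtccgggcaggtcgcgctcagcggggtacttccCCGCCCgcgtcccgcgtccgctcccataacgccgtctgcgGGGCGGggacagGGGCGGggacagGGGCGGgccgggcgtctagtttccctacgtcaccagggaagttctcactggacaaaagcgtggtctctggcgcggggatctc
BBC3: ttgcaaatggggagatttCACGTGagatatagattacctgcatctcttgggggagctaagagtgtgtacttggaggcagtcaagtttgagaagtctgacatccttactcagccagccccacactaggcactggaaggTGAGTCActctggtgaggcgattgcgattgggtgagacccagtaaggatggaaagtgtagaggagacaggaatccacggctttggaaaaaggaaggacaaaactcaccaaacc
BCL2L11: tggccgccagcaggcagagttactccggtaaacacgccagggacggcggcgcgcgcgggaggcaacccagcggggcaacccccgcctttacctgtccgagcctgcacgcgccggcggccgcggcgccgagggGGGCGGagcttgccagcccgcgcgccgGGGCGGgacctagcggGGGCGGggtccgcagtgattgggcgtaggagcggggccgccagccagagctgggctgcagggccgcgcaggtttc
The PMAIP1 window held 4 GC boxes and the BCL2L11 window held 3, while the BBC3 window held 0 GC boxes, 1 AP-1 match and 1 E-box. Of 35116 promoter windows of this length, 42.6% held a GC box, 6.57% an AP-1 match and 6.34% an E-box. G and C made up 72.8% of the PMAIP1 window, 76.8% of that of BCL2L11 and 49.2% of that of BBC3, against a median of 58.0% over all windows. The 3 windows thus had no motif of these in common. Of 12 motifs searched, the p53 decamer was found in the window of BAK1 alone among the 8 family genes with a window, and in 5.57% of all windows. A match is a run of letters, not a measured binding site. No listed ATAC-seq peak overlapped the 250 bases shown for BBC3 or BCL2L11 in any of the 4 lists, while 1 overlapped those of PMAIP1 in each. Whether the sequences shown are the promoters in use was not tested.

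BMF, a BH3-only gene that responds to loss of cell attachment (ENSG00000104081, chr15:40087890-40108892), was low throughout and differed mainly between the lines. Its normalized counts were 21.5, 13.5 and 12.8 in A2780 control and 25.3, 18.4 and 21.6 after cisplatin. In Acis they were 5.31, 3.20 and 2.28 without treatment and 3.84, 5.91 and 1.97 with it, below every A2780 library. Cisplatin gave a log2 fold change of 0.44 (SE 0.25, adjusted p = 0.165) in A2780 and of 0.10 (SE 0.57, adjusted p = 0.946) in Acis, so a change of BMF in Acis was not detectable at this depth.

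Among the anti-apoptotic genes, BCL2 (ENSG00000171791, chr18:63123346-63320128) fell in A2780, and its change in Acis did not pass the test. It had 222, 205 and 197 normalized counts in A2780 control and 162, 143 and 148 in A2780 cisplatin. It had 83.9, 93.7 and 92.3 in Acis control and 83.5, 98.5 and 92.3 in Acis cisplatin. The treated A2780 libraries lay below the untreated ones and above every Acis library, and the Acis groups overlapped. The log2 fold change was -0.46 (SE 0.08, adjusted p = 1.73e-05) in A2780 and 0.02 (SE 0.11, adjusted p = 0.940) in Acis, where the 95% interval ran from -0.19 to 0.24. The interaction was 0.49 (SE 0.14, adjusted p = 0.0131), one of 2 in the family that were called. It was lost with DESeq2 (adjusted p = 0.108), without Acis control replicate 1 (0.0520) and without Acis cisplatin replicate 2 (0.0609), at values of 0.43 to 0.47. The interaction was called higher, meaning a more positive change in Acis, in 13.4% of all tested genes and lower in 5.48%, and with total counts in 9.28% and 9.97%. The family's share of 2 of 9 was near these.

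BCL2 is also the longest of these genes, at 196783 bp. Long genes as a class fell after cisplatin, and the median log2 fold change of tested genes over 100 kb was -0.40 in A2780 and -0.18 in Acis. The change of BCL2 stood at percentile 41.1 of its length class in A2780 and at percentile 82.5 in Acis. By contrast, PMAIP1 stood at percentiles 96.7 and 94.2 of genes under 10 kb, BBC3 at percentiles 96.7 and 95.6 of genes of 10 to 30 kb, and BCL2L11 at percentiles 96.9 and 95.8 of genes of 30 to 100 kb, in A2780 and Acis respectively. The medians of these 3 classes were 0.21, 0.09 and -0.15 in A2780. BAX, BAK1 and MCL1, which also rose in A2780, stood nearer the middle of their classes there, at percentiles 54.0, 62.0 and 65.3. The part of gene length in these results was not tested.

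**Figure D2:**
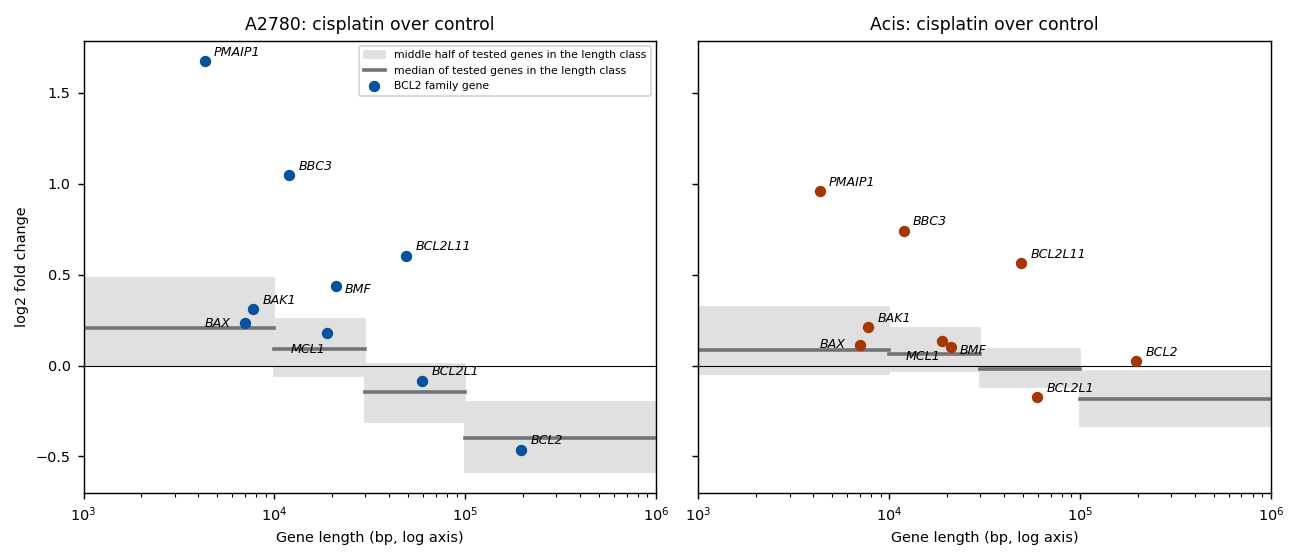
Log2 fold change after cisplatin (y axis) of the 9 tested BCL2 family genes against gene length in bp (x axis, log scale), in A2780 (left) and Acis (right). Gray lines are the medians of all tested genes in 4 length classes, and gray boxes run from the 25th to the 75th percentile. BCL2 lies near the median of its class in A2780, at -0.46 against -0.40, while PMAIP1, BBC3 and BCL2L11 lie above the boxes of their classes in both lines.

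MCL1, a short-lived anti-apoptotic protein that NOXA binds (ENSG00000143384, chr1:150560895-150579738), had the most counts of the family. Its normalized counts were 1411, 1490 and 1493 in A2780 control and 1602, 1694 and 1679 after cisplatin. In Acis they were 1346, 1406 and 1345 without treatment and 1524, 1505 and 1478 with it. The libraries did not overlap between control and cisplatin in either line. The rises were small, with log2 fold changes of 0.18 (SE 0.03, adjusted p = 5.66e-05) in A2780 and 0.14 (SE 0.03, adjusted p = 0.00425) in Acis, the latter lost with DESeq2 (adjusted p = 0.108). ADAMTSL4-AS1 shares exonic sequence with MCL1 on the same strand, so reads from the shared part may be counted for neither gene. MCL1 had 0.241 raw counts per exon base, at percentile 97.5 of tested genes, and removing duplicates of single-end reads caps the count at a position. A correction for this cap gave 0.21 in A2780 and 0.16 in Acis.

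BCL2L1, which encodes BCL-XL (ENSG00000171552, chr20:31664452-31723989), changed little. It had 356, 366 and 368 normalized counts in A2780 control and 360.1, 350.5 and 317 after cisplatin. In Acis it had 379, 376 and 374 without treatment and 331, 338 and 333 with it. Treated and untreated libraries overlapped in A2780 and did not in Acis. Its log2 fold change was -0.08 (SE 0.05, adjusted p = 0.261) in A2780, and 0.03 when libraries were scaled by total counts. In Acis it was -0.17 (SE 0.06, adjusted p = 0.0342). This call was lost in each of the 6 refits without an Acis library (adjusted p of up to 0.0905), with DESeq2 (0.124), with total counts (0.172) and with the closest pair merged in all 4 groups (0.0620).

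The effectors had smaller fold changes than PMAIP1, BBC3 and BCL2L11. BAX (ENSG00000087088, chr19:48954815-48961798) had 426, 451 and 479 normalized counts in A2780 control and 558, 510 and 524 in A2780 cisplatin, and the groups did not overlap. It had 350.3, 323 and 331 in Acis control and 370, 338 and 379 in Acis cisplatin, which overlapped. The log2 fold change was 0.23 (SE 0.05, adjusted p = 0.000688) in A2780, close to the median of 0.21 of genes under 10 kb, and 0.11 (SE 0.06, adjusted p = 0.233) in Acis. BAK1 (ENSG00000030110, chr6:33572547-33580293) had 123, 109 and 85.4 normalized counts in A2780 control and 135, 132 and 129.7 after cisplatin. In Acis it had 88.1, 93.7 and 87.8 without treatment and 101, 111 and 100.2 with it, and the groups overlapped in neither line. Its log2 fold change was 0.31 (SE 0.10, adjusted p = 0.0130) in A2780 and 0.21 (SE 0.12, adjusted p = 0.224) in Acis. The call in A2780 was lost with DESeq2 (adjusted p = 0.130) and without A2780 control replicate 3, the lowest library, where the value was 0.18 (adjusted p = 0.201). BAK1 has pseudogenes in the annotation, BAK1P1 and BAK1P2, so its counts may be less certain. How far reads are shared with these pseudogenes was not tested.

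**Figure D3:**
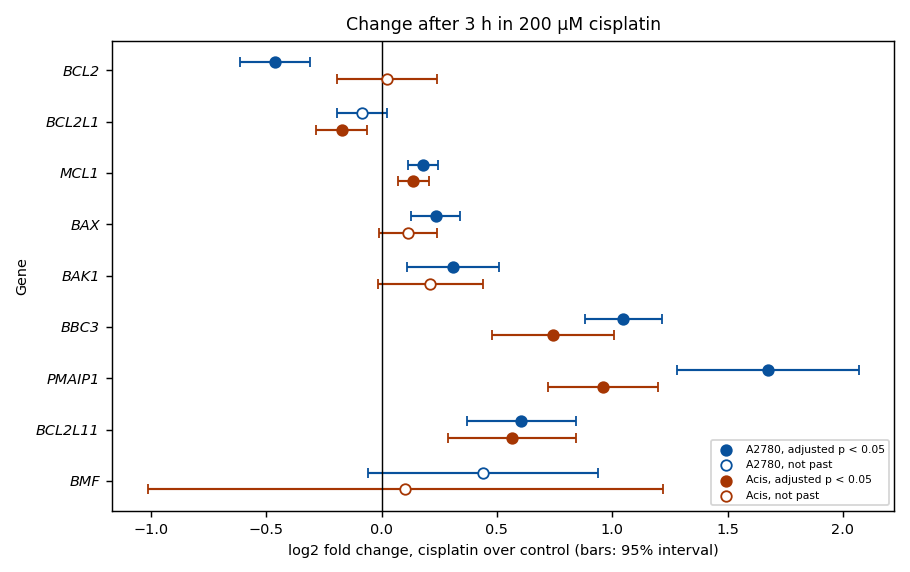
Log2 fold change after 3 h in 200 µM cisplatin (x axis) of the 9 tested BCL2 family genes (y axis) in A2780 and Acis. Points are edgeR estimates, bars are 95% intervals, and filled points passed an adjusted p-value of 0.05. BCL2 is at -0.46 in A2780 and 0.02 in Acis, and PMAIP1 is at 1.67 and 0.96.

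Without treatment, most of the tested family genes were lower in Acis than in A2780, and PMAIP1 was higher. In Acis control, 6 of the 9 tested genes were called lower (BCL2, BBC3, BMF, BAX, BCL2L11 and MCL1), where 30.6% of all tested genes were, and PMAIP1 was called higher, where 28.2% were. Leaving out 1 library gave 5 to 7 lower. With DESeq2, 4 were lower (BCL2, BBC3, BMF and BAX), against 18.8% of all genes it tested, and 1 was higher, against 15.9%. BMF passed the filter only through A2780, where it is high, and without BMF 5 of 8 were lower with edgeR. Of these 8, BCL2 and BBC3 passed the stricter call as lower, against 12.2% of all tested genes, and PMAIP1 as higher, against 6.99%. The median log2 difference of the 8 genes was -0.31, and that of all tested genes was -0.01.

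PMAIP1 was higher in Acis control by 1.90 on the log2 scale (SE 0.20, adjusted p = 3.38e-09), with means of 61.7 ± 6.55 against 16.6 ± 6.15 normalized counts (SD, n = 3). BMF had 49 raw counts summed over A2780 control and 10 over Acis control. As the filter selects it for being high in A2780, its test is given without the filter, where the log2 difference was -2.12 (SE 0.40, adjusted p = 3.05e-05). BCL2 had a difference of -1.21 (SE 0.09, adjusted p = 4.50e-12), with means of 90.0 ± 5.33 and 208 ± 12.6 (SD, n = 3). BBC3 had one of -1.10 (SE 0.13, adjusted p = 2.08e-08), with means of 59.2 ± 15.9 and 128 ± 6.50 (SD, n = 3). Of these, PMAIP1 and BBC3, which both act as BH3-only proteins, thus differed between the lines in opposite directions.

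BAX was lower in Acis control by less, with a log2 difference of -0.43 (SE 0.06, adjusted p = 8.14e-07). The differences of BCL2L11 (-0.37, SE 0.15, adjusted p = 0.0307) and MCL1 (-0.10, SE 0.03, adjusted p = 0.0153) were small and were lost with DESeq2 (adjusted p = 0.154 and 0.0931). That of BCL2L11 was also lost without A2780 control replicate 2 (adjusted p = 0.0959) and without Acis control replicate 1, where it was -0.22 (adjusted p = 0.285). BAK1 did not pass the test, at -0.25 (SE 0.12, adjusted p = 0.0706), but did without A2780 control replicate 3, at -0.38 (adjusted p = 0.00753). BCL2L1 stood at 0.05 (SE 0.06, adjusted p = 0.513), with a 95% interval of -0.06 to 0.16.

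After cisplatin the line difference was of the same kind. In Acis cisplatin against A2780 cisplatin, 7 of the 9 tested genes were called lower, against 31.2% of all tested genes, and PMAIP1 was called higher, against 31.8%. Without BMF, 6 of 8 were lower, of which 1, BBC3, passed the stricter call, against 11.9%, and PMAIP1 passed it as higher, against 7.28%. BBC3 had the most precise of the larger differences, at -1.41 (SE 0.09, adjusted p = 1.49e-13). PMAIP1 was at 1.19 (SE 0.12, adjusted p = 2.74e-09), BMF, without the filter, at -2.44 (SE 0.35, adjusted p = 2.61e-07) and BCL2 at -0.73 (SE 0.09, adjusted p = 1.75e-07). BAX was at -0.55 (SE 0.06, adjusted p = 2.21e-09), and BCL2L11, BAK1 and MCL1 lay between -0.41 and -0.14. The comparisons of treated and of untreated lines with the cisplatin effects share libraries, so their values are given side by side only.

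**Figure D4:**
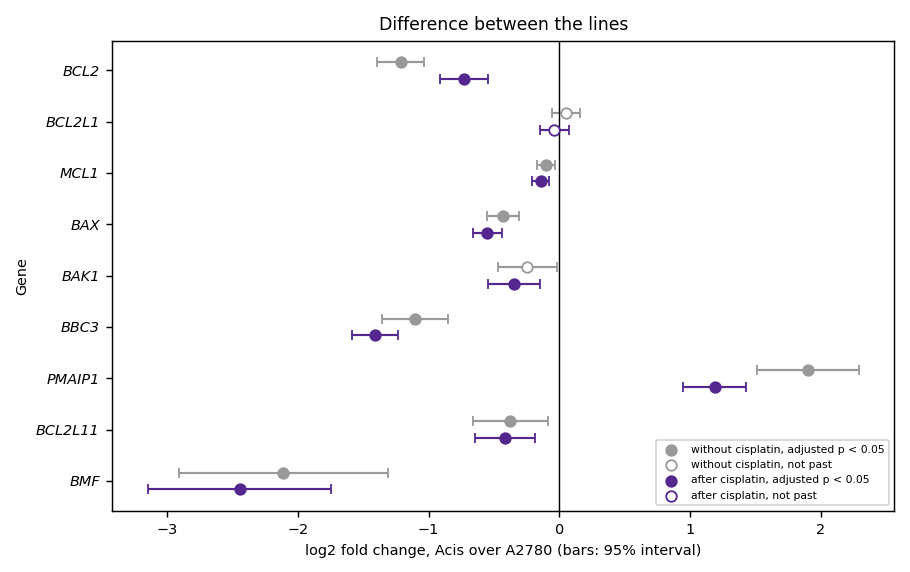
Log2 fold change of Acis over A2780 (x axis) for the 9 tested BCL2 family genes (y axis), without cisplatin and after it. Points are edgeR estimates, bars are 95% intervals, and filled points passed an adjusted p-value of 0.05. PMAIP1 is the one gene to the right of 0 in both comparisons with a filled point, at 1.90 and 1.19.

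Levels were compared between genes per kb of annotated exon, on the scale of normalized counts. The order began with MCL1 and BAX in all 4 groups, at 235 ± 7.42 and 175 ± 10.2 in A2780 control (SD, n = 3) and at 219 ± 5.60 and 129 ± 5.50 in Acis control. In A2780 control BCL2L1 followed at 86.6 ± 1.52, then BAK1 (47.8 ± 8.61) and BBC3 (40.3 ± 2.04), which did not differ beyond their spread. BCL2 (16.5 ± 1.00) came before BCL2L11 (9.97 ± 0.63) and PMAIP1 (7.62 ± 2.82), which again did not differ beyond their spread. After cisplatin in A2780, BBC3 rose to 83.1 ± 2.57, level with BCL2L1 at 81.6 ± 5.35. In Acis control PMAIP1 (28.2 ± 3.00) stood before BBC3 (18.6 ± 4.98), the reverse of A2780, and in Acis cisplatin it reached 54.8 ± 4.96, beside BAK1 at 47.1 ± 2.81. BCL2 stood at 7.13 ± 0.42 in Acis control, within the spread of BCL2L11 (7.71 ± 1.63). Exon length counts every annotated exon, so genes with long alternative exons, such as BCL2, appear lower per kb.

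The ratio of BAX to BCL2, an effector against an inhibitor that is often used as a balance, was formed in each library from counts per kb of exon. It was 9.36, 10.7 and 11.8 in A2780 control and 16.8, 17.4 and 17.2 in A2780 cisplatin. It was 20.4, 16.8 and 17.5 in Acis control and 21.6, 16.7 and 20.02 in Acis cisplatin. A2780 control lay below the other 3 groups, which overlapped with each other. The log2 difference was 0.69 after cisplatin in A2780 and 0.78 between the untreated lines, each with a two-sided exact permutation p of 0.1, the smallest that 3 against 3 libraries allow. Cisplatin in Acis gave 0.09 (exact permutation p = 0.7). In A2780 both genes changed near the medians of their length classes, BAX by 0.23 against 0.21 and BCL2 by -0.46 against -0.40. The part of gene length in the ratio was not tested. Between the untreated lines BAX itself was lower in Acis, at -0.43, and BCL2 more so, at -1.21.

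ATAC-seq peaks at the gene starts gave a readout that the choice of genes did not use. A peak within 1000 bp of the start was listed for 6 of the 10 genes in A2780 control and 8 after cisplatin, where 69.4% and 70.5% of all tested genes had one, and for 6 in Acis with or without cisplatin, against 67.1% and 63.1%. BCL2L1, MCL1, PMAIP1, BMF, BAX and BAK1 had one in every list. BIK and BCL2L11 had none in any list. BCL2 and BBC3 had one in A2780 cisplatin alone, and both depended on the settings. The peak of BCL2 (chr18:63319581-63319944) had a fold enrichment of 4.12 over the local background, and it was lost when a -log10 q of at least 20 was asked for, as its own was 7.04, and that of BBC3 (chr19:47231379-47231786) one of 4.68, with its summit 1284 bp inside the gene, and was lost with a window of 250 bp or when the summit had to lie in the window. Within 5000 bp of the start, BBC3 had a peak in all 4 lists, and BCL2L11 had one in every list but that of Acis cisplatin. There was 1 list per condition, so these differences have no replicate check.

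At PMAIP1 the highest peak at the start had a fold enrichment of 8.07 in A2780 control (chr18:59899840-59900244) and 10.6 after cisplatin. In Acis it had 19.8 without treatment (chr18:59899837-59901041) and 17.2 with it. In all 4 lists the peak covered at least the 2 GC boxes nearest the start in the sequence printed above. The log2 ratio of Acis control over A2780 control was 1.29, at percentile 99.9 of the 9655 tested genes with a peak at the start in both lists, whose median was 0.14. Between the treated lines the ratio was 0.70, at percentile 88.2 of 10202 genes with a median of 0.37. In A2780, the ratio of cisplatin over control was 0.39, at percentile 98.5 of 10545 genes with a median of -0.26, and in Acis it was -0.20, at percentile 19.2. The groups with higher PMAIP1 RNA between the lines were therefore those with the higher peak, whereas in Acis the RNA rose after cisplatin while the fold enrichment was not higher.

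The other family genes did not share the whole of this pattern, and BAX shared the part in A2780. MCL1 had a fold enrichment of 18.6 in A2780 control and 9.90 in A2780 cisplatin, a log2 ratio of -0.91 at percentile 2.28, while its RNA rose. BCL2L1 went from 11.8 to 5.99, at percentile 1.58. BAX had 12.3 and 13.2 in A2780 without and with cisplatin, at percentile 92.6, and its RNA also rose there. In Acis BAX had 16.9 and 17.3, while its RNA was lower in Acis. Its ratio of Acis control over A2780 control stood at percentile 93.6. BMF, with its low RNA in Acis, had 19.04 and 18.8 in A2780 and 20.3 and 20.4 in Acis, and BAK1 had 17.0 to 19.8 in the 4 lists. Over all tested genes with a peak at the start, the medians were 14.7 and 11.5 in A2780 and 16.9 and 15.7 in Acis. The depth of the ATAC-seq libraries is unknown here, and fold enrichment moves with it.

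**Figure D5:**
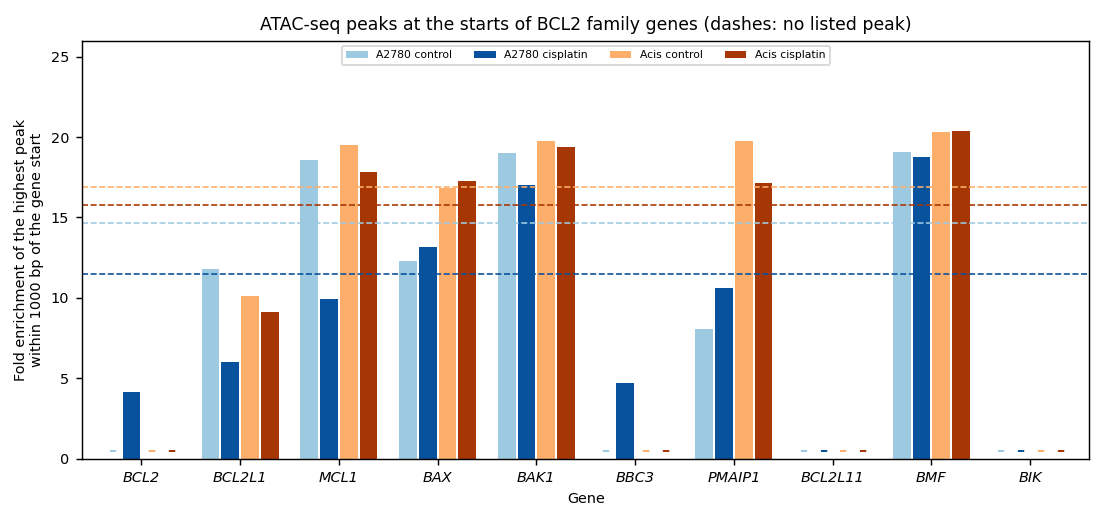
Fold enrichment (y axis, from 0) of the highest ATAC-seq peak within 1000 bp of the gene start for the 10 BCL2 family genes (x axis), in the 4 peak lists. Short dashes mark no listed peak, and dashed lines are the medians of all tested genes with a peak. PMAIP1 stands at 8.07 in A2780 control and 19.8 in Acis control, and BCL2 and BBC3 have a bar in A2780 cisplatin alone.

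The other genes of the pathway were taken from 5 lists with 46 genes, of which 39 were tested. In A2780, 8 of the 39 rose and 11 fell after cisplatin, and in Acis 3 rose and 4 fell, shares near those of all tested genes given above. Between the untreated lines 18 were higher and 8 lower in Acis, where 28.2% and 30.6% of all tested genes were. The 18 include CASP10, which passed the filter on low counts through Acis, where it is high. Inhibitors of apoptosis, which bind caspases, had 3 of 5 tested genes lower after cisplatin in A2780 (BIRC6, XIAP and BIRC2) and 1 in Acis (BIRC6), against 28.2% and 12.4% of all tested genes. XIAP, the most direct caspase inhibitor, had 603 ± 13.8 normalized counts in A2780 control and 407 ± 27.5 after cisplatin (SD, n = 3), a log2 fold change of -0.57 (SE 0.06, adjusted p = 5.54e-09), and it had 524 ± 26.96 and 516 ± 40.6 in Acis. The interaction was called for XIAP at 0.55 (SE 0.08, adjusted p = 2.99e-05). XIAP stood at percentile 6.89 of genes of 30 to 100 kb in A2780. BIRC6 fell by 0.67 in A2780 (adjusted p = 1.05e-15) and by 0.48 in Acis (adjusted p = 1.31e-11) on the log2 scale. It is 262549 bp long and stood at percentile 17.9 of genes over 100 kb in A2780 and at percentile 12.3 in Acis.

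Of 13 genes of the apoptosome and caspases, 4 rose and 2 fell in A2780, and 2 rose in Acis, where 21.2%, 28.2% and 9.35% of all tested genes did so. APAF1, the scaffold of the apoptosome, fell in A2780 with a log2 fold change of -0.32 (SE 0.07, adjusted p = 0.000676), and was lower in Acis control than in A2780 control by 0.57 on the log2 scale (adjusted p = 4.58e-07). CASP10, an initiator caspase of death receptors, had 35.7 ± 6.77 normalized counts in Acis control and 4.86 ± 1.44 in A2780 control (SD, n = 3). It passed the filter on low counts through Acis, where it is high, so its test is not given. HTRA2, a mitochondrial protease, was higher in Acis control by 0.62 (adjusted p = 1.77e-06). Of 7 tested genes of the death receptor arm, 5 were higher in Acis control, against 28.2% of all tested genes, among them FAS, a death receptor (log2 difference 0.91, SE 0.08, adjusted p = 2.29e-10), TNFRSF1A, the TNF receptor (0.53, adjusted p = 2.32e-10), and RIPK1, its kinase (0.20, adjusted p = 0.00446). After cisplatin, 1 gene of this arm rose and 1 fell in A2780, against 21.2% and 28.2% of all tested genes. In Acis 0 rose and 0 fell, against 9.35% and 12.4%.

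Among 11 other tested BCL2 family genes, 3 rose and 3 fell in A2780, 1 rose and 1 fell in Acis, and 6 were higher and 5 lower in Acis control. Of all tested genes, 21.2% and 28.2%, 9.35% and 12.4%, and 28.2% and 30.6% did so. BOK, a BAX-like effector, was higher in Acis control by 0.71 (SE 0.07, adjusted p = 3.66e-10). BCL2L2, the anti-apoptotic BCL-W, was higher by 0.53 (SE 0.06, adjusted p = 1.91e-08), opposite to BCL2. BCL2L13 was lower, at -0.59 (SE 0.05, adjusted p = 1.15e-10). Of the 3 genes that set the turnover of MCL1 protein, the ubiquitin ligase HUWE1 fell in A2780 (-0.39, adjusted p = 2.74e-11) and in Acis (-0.37, adjusted p = 6.46e-10), the deubiquitinase USP9X fell by 0.44 (adjusted p = 6.10e-12) and 0.18 (adjusted p = 5.97e-05), and the ligase component FBXW7 did not pass the test. HUWE1 and USP9X are 154657 and 151135 bp long, and in A2780 they stood at percentiles 50.8 and 44.1 of genes over 100 kb. In Acis they stood at percentiles 21.4 and 49.6.

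For the 3 members with the smallest adjusted p of the interaction (BCL2, PMAIP1 and BBC3, of which BBC3 did not pass the test), the genes with the most similar profile over the 12 libraries were sought among 9327 or 9328 genes whose mean over all libraries reached 100 normalized counts, by Pearson's r of log2 values. The 12 points form 4 groups, so r mostly follows the group means. BBC3 was most like GDF15 (r = 0.990), a stress cytokine, with means of 159 and 417 normalized counts in A2780 without and with cisplatin and of 58.2 and 115 in Acis. MUTYH and DMPK followed, with r of 0.983 and 0.982. PMAIP1 was most like TRIB1 (r = 0.989), a pseudokinase, with means of 98.5 and 235 in A2780 and of 244 and 392 in Acis, followed by ETS2 (0.978) and MOB3C (0.977). BCL2 was most like DBT (r = 0.990), LINC00662 (0.988) and CBX5 (0.986). The gene ranked 100 still had r of 0.938 for BBC3, 0.918 for PMAIP1 and 0.967 for BCL2, so many genes had nearly the same profile.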

How the data were processed

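RNA-seq, ATAC-seq and excision repair sequencing were made of 18 samples; the 2 repair samples were not analysed here. Per the methods of the authors, stranded, ribosomal RNA-depleted single-end libraries were aligned to hg38 with STAR, duplicates were removed with Picard, and reads were counted with HTSeq 0.11.1 on the reverse strand. The authors deposited raw counts for genes with at least 10 over the 12 libraries. Bowtie2 and MACS2 gave the ATAC-seq peaks, kept where replicates overlapped and deposited by the authors as fold enrichment with -log10 p and -log10 q values.

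Counts were fitted with edgeR 4.0.16 in R 4.3.3, with TMM factors of 0.965 to 1.05, edgeR's default filter and a model of 4 groups with 8 residual degrees of freedom. The test was checked on simulated data. Groups came from the sample labels. DESeq2 1.42.0, other scalings and filters, a replicate block, merged replicates and leaving out each library were alternatives. A correction for duplicate removal and merging in all 4 groups were added after the data were seen. Intervals of 95% are normal intervals from the standard error. Genes lay on GENCODE 44, and promoters were the 250 bases before RefSeq starts. The 12 motifs searched on both strands were the TATA box (TATAAA), the GC box (GGGCGG), the CCAAT box (letters as named), the CRE (TGACGTCA) and its shorter form (TGACG), the AP-1 site (TGANTCA), the E-box (CACGTG), the FOXO site (TGTTTAC), the E2F site (TTTCGCGC), the p53 decamer, the CArG box and the NF-kB site. The family genes and the lists were chosen with earlier results of these data known. All 10 family genes are named, and of each wider list the 3 genes with the smallest adjusted p-values over the cisplatin comparisons and the untreated lines. With 4130644 to 5072216 counts per library, genes with few counts have a wide error.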

Additional observations from a re-analysis of the deposited data

Results flagged for a closer look

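The cisplatin effects of the lines differed by the interaction test for 2 of the 9 tested BCL2 family genes. This share was near the 13.4% higher and 5.48% lower of all tested genes. With DESeq2 the effects differed for 0 of them, against 9.77% higher and 2.65% lower of all genes it tested. For BCL2 the change in Acis minus that in A2780 was 0.485 on the log2 scale (SE 0.14, edgeR adjusted p = 0.0131). For PMAIP1 it was -0.714 (SE 0.25, edgeR adjusted p = 0.0426). All 3 treated A2780 libraries were below the untreated ones for BCL2, and PMAIP1 was higher in all treated libraries of both lines.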

How the results depend on the processing

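Of 935 values of single genes under the alternatives, 889 kept their direction and side of the threshold, 33 lost and 1 gained the call, and 12 turned sign; the cause was not tested for any of them. Under the stricter call, the family genes higher and lower after cisplatin numbered 2 and 0 in A2780 and 0 and 0 in Acis. Of all tested genes, 4.14% were higher in A2780 and 2.01% passed in Acis in either direction. Those lower in Acis numbered 3 without and 2 with cisplatin, or 2 and 1 without BMF, against 12.2% and 11.9%. The interaction gave 0 and 0 under the stricter call. With DESeq2, 2 rose and 0 fell in Acis, against 3.18% and 9.13% of all genes it tested. Its interaction gave 0 and 0, against 9.77% and 2.65%. Total counts gave 0 lower in Acis, against 8.95% of all tested genes, and moved the median log2 change of all genes in A2780 by 0.11. Without the filter, and with replicates merged, the interaction gave 0 lower, against 2.58% and 4.09% of all tested genes. Merging in all 4 groups gave 0 lower for the interaction, against 2.92%, and 0 lower in Acis, against 9.93%. Leaving out 1 library gave 0 to 1 lower in Acis and 0 to 1 each way for the interaction.

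The sign turned for BCL2L1 in A2780 with total counts (0.033). It turned on leaving out 1 library for BCL2 in Acis (-0.034 to 0.084, and -0.0029 with DESeq2), BMF in Acis (-0.30 to 0.48), BCL2L1 between treated lines (-0.088 to 0.0014) and the interactions of BCL2L11 (-0.21 to 0.060), BMF (-0.74 to 0.052) and BAK1 (-0.22 to 0.026). The libraries that turned them were Acis control replicate 1 or Acis cisplatin replicate 2 for BCL2, Acis control replicate 3 or Acis cisplatin replicate 2 for BMF, and A2780 cisplatin replicate 1 for BCL2L1. For the interactions they were Acis control replicate 2 or 3 or Acis cisplatin replicate 3, Acis control replicate 1, and A2780 control replicate 3. None of these 7 values had passed the test with edgeR.

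Whether the replicate numbers pair the samples was not settled. Correlations of libraries with the same number ran from -0.257 to 0.355 and 6 of 18 were over 0.1. Leaving out Acis cisplatin, they ran from 0.053 to 0.355. Those of libraries with different numbers ran from -0.284 to 0.352, and leaving out Acis cisplatin from -0.239 to 0.127. The value of 0.352 was that of Acis control replicate 1 with Acis cisplatin replicate 3. The replicate block used these numbers. Whether Acis cisplatin is numbered in another order was not tested, so the block cannot check a pairing of that group. With a replicate block, 6 family genes were called higher and 1 lower in A2780, against 21.4% and 28.5% of all tested genes. In Acis 4 and 1 were called, against 9.67% and 12.8%, and no call of the text changed. PMAIP1 had 12 to 22 raw counts in A2780 control and BMF 2 to 6 in Acis, so depth limits these genes most.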
